A study of Rattus norvegicus with 12 samples.

Results

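The heat shock proteins and their DnaJ partners are the molecular chaperones that fold new proteins, refold damaged ones and carry proteins across membranes. Of the 14217 genes with a probe set of their own on the array used here, 62 were members: 96 of 31042 probe sets carried exactly 1 gene symbol that starts with Dnaj, Hspa, Hspb, Hspd, Hspe, Hsph or Hsp90, with the Hspbp and Hspbap genes left out. By the compartment in which each protein is known to work, 57 probe sets (38 genes) were placed in the cytosol or nucleus, 19 (12 genes) in the endoplasmic reticulum and 15 (9 genes) in the mitochondrion, and 5 (3 genes: Hspa12a, Hspa12b and Dnajc22) were not assigned. A further 6 probe sets that list a chaperone gene together with another symbol were left out by the rule. As a result Hsp90aa1, Hspa8 and Hspa1b were not analysed here.

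Messenger RNA had been measured in heart tissue of rats on 1-colour oligonucleotide arrays, 1 for each heart, in 6 failing and 6 control hearts that the labels call biological replicates. By its title the series concerns the spontaneously hypertensive rat, an inbred strain with high blood pressure, as its hypertrophied heart comes to fail. Its protocol names further hearts given captopril, alone or with butyrate, which are not analysed here. The labels give neither the strain nor the age of the control animals, and no age for the failing ones. All samples are labelled as heart, although their free-text entry mentions a cell line.

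Chaperones of the Hsp70 family (Hspa and Hsph genes) bind unfolded stretches of protein in a cycle driven by ATP, and DnaJ proteins, also called J-proteins or Hsp40, bring them their substrates and start that cycle. Hsp90 proteins mature kinases and steroid receptors, small heat shock proteins (Hspb genes) hold unfolding proteins and are abundant in heart muscle, and the Hsp60 and Hsp10 chaperonin (Hspd1 and Hspe1) folds proteins inside mitochondria. Cytosolic and mitochondrial stress genes are classically switched on through heat shock elements in their promoters, and those of the endoplasmic reticulum through the ER stress response element.

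The promoters come first because they group these genes. RefSeq promoter windows of assembly GRCr8, from 250 bases before to 50 bases after the gene start, were found for 51 of the 62 genes. The genes with no window were Dnaja2, Dnajb4, Dnajc2, Dnajc8, Dnajc11, Dnajc12, Dnajc15, Dnajc22, Dnajc24, Hspa12a and Hspb2. A heat shock element of 3 units was searched as GAANNTTCNNGAA on one strand or TTCNNGAANNTTC on the other. It was present in 4 of the 51 windows (7.84%), those of Hspd1, Hspe1, Hsph1 and Dnaja1, against 0.798% of 33469 windows in the whole table. Its 2-unit parts, which overlap it and read the same on both strands, were commoner: GAANNTTC lay in 11 of 51 windows (21.6%, against 8.59% of all) and TTCNNGAA in 9 (17.6%, against 8.77%). The ER stress response element, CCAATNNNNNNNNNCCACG on either strand, lay in 3 of 51 windows (5.88%), those of Hspa5, Hsp90b1 and Dnajc3, against 0.0657% of all. These are matches of letters in a window, not measured binding. The heat shock elements of Hspd1 and Hspe1 are the same stretch read from opposite strands, and each heat shock element count includes it for both genes.

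Hspd1 and Hspe1 start 290 bases apart on opposite strands, so that a single stretch serves as the upstream region of both, and their windows share 211 bases. The stretch is shown on the Hspe1 strand (chr9:64084077-64084326, plus strand, GRCr8), with its pair of overlapping 3-unit heat shock elements in capitals, from position -65 to position -48 counted from the Hspe1 start. It is followed by upstream sequence of Hsph1 (chr12:10427248-10427367, plus strand), with its 3-unit element in capitals, and of Dnajb1 (chr19:41431142-41431261, minus strand) and Dnajb6 (chr4:6232005-6232184, minus strand), with GAANNTTC in capitals. Each ends at the base before the gene start.
Hspe1: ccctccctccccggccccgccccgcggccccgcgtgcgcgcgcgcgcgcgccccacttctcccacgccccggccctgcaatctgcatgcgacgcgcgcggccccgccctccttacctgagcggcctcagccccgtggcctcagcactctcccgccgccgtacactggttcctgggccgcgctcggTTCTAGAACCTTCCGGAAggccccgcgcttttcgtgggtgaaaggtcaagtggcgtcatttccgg
Hsph1: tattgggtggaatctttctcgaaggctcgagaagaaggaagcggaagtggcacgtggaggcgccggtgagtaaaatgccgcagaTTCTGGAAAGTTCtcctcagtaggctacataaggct
Dnajb1: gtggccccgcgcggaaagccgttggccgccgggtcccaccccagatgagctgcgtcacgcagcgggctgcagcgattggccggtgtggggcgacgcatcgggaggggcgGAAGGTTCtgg
Dnajb6: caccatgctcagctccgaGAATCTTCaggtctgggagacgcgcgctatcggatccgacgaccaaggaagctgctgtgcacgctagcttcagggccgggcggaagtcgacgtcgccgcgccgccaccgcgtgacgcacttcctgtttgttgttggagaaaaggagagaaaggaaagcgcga

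The upstream sequences of the 3 genes with an ER stress response element, in capitals, are those of Hspa5 (chr3:38452836-38453015, plus strand), Hsp90b1 (chr7:23012294-23012473, minus strand), which holds 2 copies in opposite directions, and Dnajc3 (chr15:102432487-102432666, plus strand), all GRCr8. They are given so that the arrays' values for these genes can be read against a shared sequence.
Hspa5: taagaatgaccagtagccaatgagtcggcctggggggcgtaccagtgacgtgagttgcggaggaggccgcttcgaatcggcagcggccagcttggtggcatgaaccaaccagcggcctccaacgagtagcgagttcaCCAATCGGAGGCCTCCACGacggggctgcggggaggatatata
Hsp90b1: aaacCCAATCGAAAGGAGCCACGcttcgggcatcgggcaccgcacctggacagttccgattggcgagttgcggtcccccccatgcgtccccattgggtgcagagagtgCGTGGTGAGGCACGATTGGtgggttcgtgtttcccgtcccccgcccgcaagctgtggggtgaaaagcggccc
Dnajc3: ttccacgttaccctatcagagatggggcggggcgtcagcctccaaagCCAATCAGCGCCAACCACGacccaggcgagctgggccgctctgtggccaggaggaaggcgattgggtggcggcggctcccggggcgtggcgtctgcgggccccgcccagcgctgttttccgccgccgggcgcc

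The arrays had been scaled alike, with median intensities between 120.8 and 144.2, and their number limits the precision. Each cell type marker was read from the brightest probe set of its gene. By these, all 6 cardiomyocyte markers were bright in every heart, with no intensity below 7710. Their summed intensity ran from 148340 through a median of 194869 to 237737 in failing hearts. In control hearts it ran from 147774 through 238489 to 245857, and control replicate 4 was the lowest control for all 6 markers. Of the 6, 1 was lower and 0 higher at an unadjusted p under 0.05. Over all 9 probe sets of these genes, 3 were lower and 0 higher. Markers of other cells were more often higher in failing hearts: 2 of 6 fibroblast, 5 of 5 macrophage, 2 of 4 endothelial and 3 of 4 smooth muscle markers at that p. The summed macrophage markers ran from 4666 to 14986 in failing and from 3752 to 6600 in control hearts, and the summed fibroblast markers from 47124 to 91850 and from 38833 to 61242. T cell markers were near the bottom of the scale (summed intensity 60 to 166 over both groups). Of these 3, 0 were higher and 1 lower at an unadjusted p under 0.05. In whole tissue, fewer cells of a type and less RNA per cell cannot be told apart, and the part of these shifts in the chaperone values was not tested. An RNA integrity measure, the 3' minus 5' difference of control probe sets, ran from 0.503 to 0.698 in failing and from 0.36 to 0.778 in control hearts.

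The 2 groups were compared by limma on log2 intensities across all 31042 probe sets. With adjustment over all of them, no member passed an adjusted p of 0.05 (0 of 96, against 0% of all probe sets). The exact rank-sum permutation test also called 0, with 8 members higher and 8 lower at an unadjusted p under 0.05. The share of all probe sets by the rank-sum test is not given here, so its 8 and 8 have no background. At an unadjusted limma p under 0.05, 10 of 96 members (10.4%) were higher and 6 (6.25%) lower in failing hearts, against 7.25% and 7.23% of all probe sets. Because dim probe sets scatter widely, the comparison was also fitted on the brighter 15521, those whose mean log2 intensity reached the median of 6.94 (an intensity of 123). Of the 70 brighter members, 1 was called higher (1.43%) and 0 lower at an adjusted p under 0.05, against 2.76% and 1.48% of brighter probe sets. In that fit 10 (14.3%) were higher and 6 (8.57%) lower at an unadjusted p under 0.05, against 13.2% and 12%. The share of higher members lay near the background, and that of lower members near or below it. The groups did not overlap in 2 of 96 members (2.08%), Dnajb6 and Dnajc3, against 1.52% of all probe sets. A gene is said below to have risen or fallen only where it passed among the brighter probe sets. Where an exact permutation p is given for a gene, it is that of the probe set alone, two-sided over the 924 splits of the hearts, which is not adjusted and cannot go below 0.00216.

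The compartments differed in where their members lay. The median difference, failing minus control on the log2 scale, was -0.25 over the 15 mitochondrial probe sets, -0.01 over the 57 cytosolic ones and 0.08 over the 19 of the endoplasmic reticulum, against -0.0235 over all probe sets. Among brighter probe sets the medians were -0.27, 0.02 and 0.09. All 10 higher members at an unadjusted p under 0.05 were cytosolic (7) or of the endoplasmic reticulum (3), whereas 4 of the 6 lower ones were mitochondrial. The higher shares were 12.3% of the cytosol and 15.8% of the reticulum, against 7.25% of all probe sets. The lower share of the mitochondrion was 26.7%, against 7.23%. Among brighter members these shares were 16.3%, 14.3% and 33.3%. In the fit on brighter probe sets the background was 13.2% higher and 12% lower. These medians and counts describe the lists and carry no test of their own. The count of 6 lower members changed when 1 heart was left out. It was 0 without control replicate 6, 1 without failing replicate 3, 2 without failing replicate 1 or control replicate 1, 3 without failing replicate 6 or control replicate 2 or 5, and 10 without failing replicate 2. The mitochondrial count of 4 became 0 without failing replicate 3 or control replicate 6, 1 without failing replicate 1, control replicate 1 or control replicate 3, and 2 without failing replicate 6 or control replicate 2. The probe sets counted differed between these settings, and the 1 without control replicate 1 was none of the original 4. The shares of all probe sets without each heart are not given here, so these counts have no background.

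**Figure D1:**
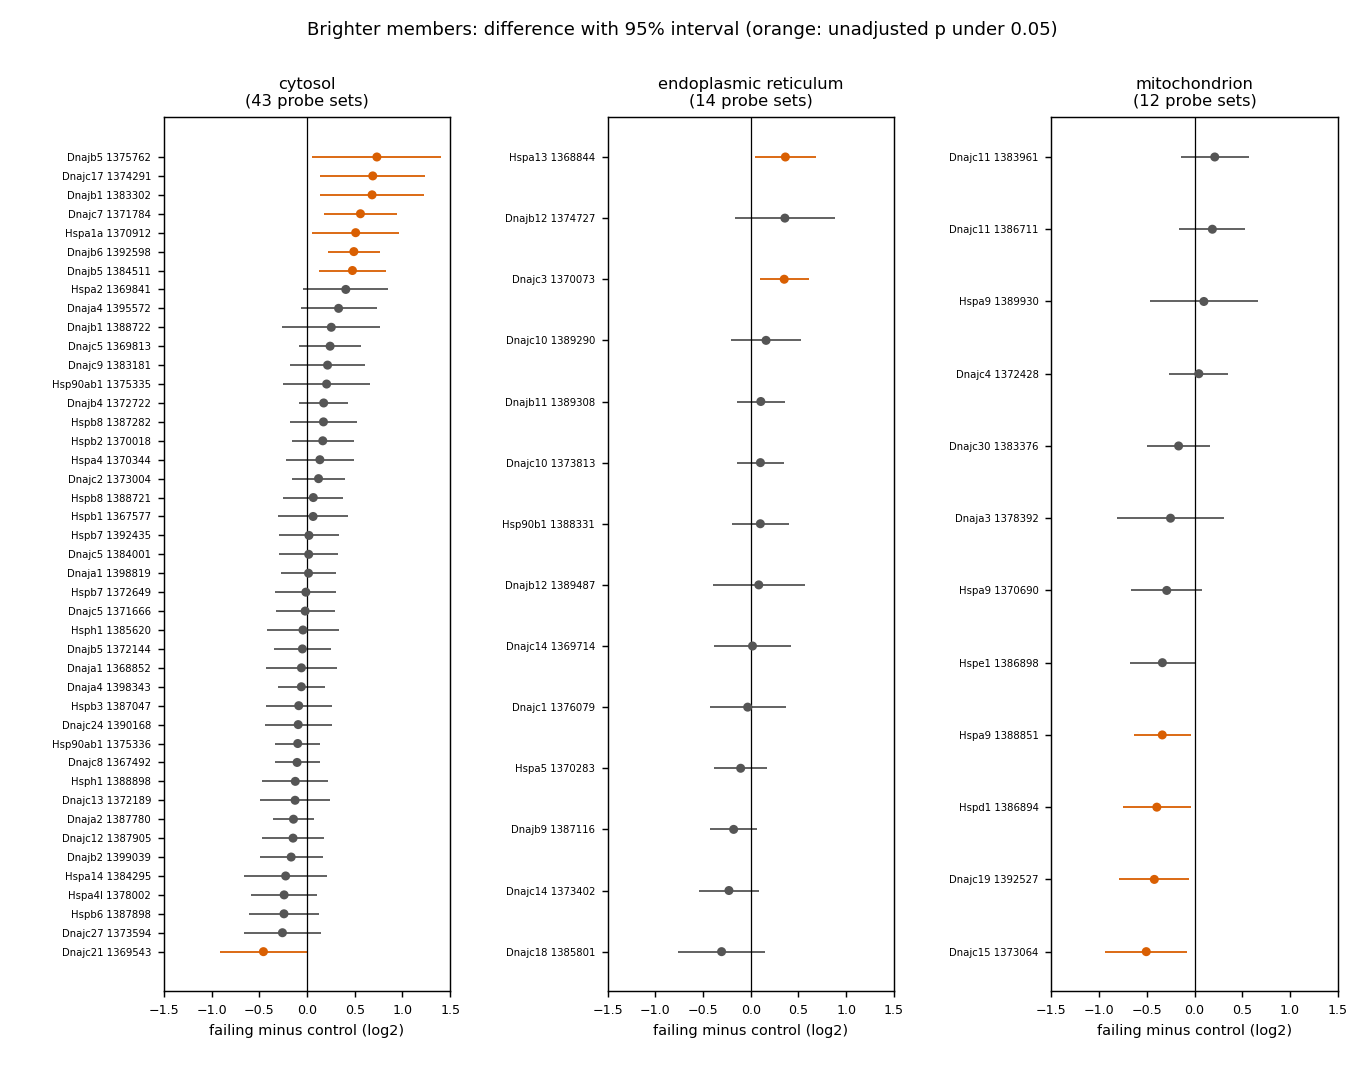
Difference between failing and control hearts (log2, horizontal axis) with its 95% interval for each brighter probe set of the cytosol (43), the endoplasmic reticulum (14) and the mitochondrion (12), 6 hearts a group. Orange marks an unadjusted p under 0.05 in the fit over all probe sets. By this, 4 mitochondrial probe sets and 1 cytosolic one (Dnajc21) lie below 0, and 7 cytosolic and 2 reticulum ones above 0.

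Among the mitochondrial chaperones the abundant folding and import genes lay lower in failing hearts, and none passed after adjustment. Hspd1, which encodes the Hsp60 chaperonin, ran from 12.93 through a median of 13.37 to 13.74 in failing hearts and from 13.38 through 13.82 to 13.89 in control hearts (log2 intensity). Apart from control replicate 4, the lowest control, every control heart lay above every failing heart. The difference was -0.40 ± 0.16 (log2 ± SE, n = 6 a group; exact permutation p = 0.0303, limma adjusted p = 0.293 over all and 0.125 among brighter probe sets). Hspe1, its Hsp10 lid, ran from 12.7 through 13.12 to 13.51 in failing and from 13.22 through 13.48 to 13.69 in control hearts. Here 4 of 6 failing hearts lay below every control heart, and the difference was -0.34 ± 0.16 (exact permutation p = 0.039, limma adjusted p = 0.164 among brighter probe sets).

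The mitochondrial Hsp70 gene Hspa9 (mortalin), which pulls imported proteins into the matrix and refolds them, had 4 probe sets. In the first, failing hearts ran from 12.44 through a median of 12.6 to 12.9 and control hearts from 12.6 through 13.02 to 13.22. The difference was -0.34 ± 0.14 (exact permutation p = 0.0195, limma adjusted p = 0.121 among brighter probe sets), and 3 of 6 failing hearts lay below every control heart. The second probe set gave -0.29 ± 0.17 (exact permutation p = 0.0996). The other 2, at means of 7.61 and 5.89 in failing hearts, gave 0.10 ± 0.26 and 0.02 ± 0.26, so the probe sets of this gene did not point one way.

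Dnajc15 and Dnajc19, J-proteins of the inner membrane that act on Hspa9 in the import motor, lay lower as well. Dnajc19, whose loss causes a cardiomyopathy with ataxia in people, ran from 11.66 through 11.98 to 12.34 in failing and from 11.88 through 12.5 to 12.72 in control hearts. The difference was -0.42 ± 0.17 (exact permutation p = 0.0281, limma adjusted p = 0.116 among brighter probe sets). For Dnajc15 the hearts ran from 11.93 through 12.3 to 12.78 and from 12.13 through 12.94 to 13.17, with a difference of -0.51 ± 0.20 (exact permutation p = 0.0325, limma adjusted p = 0.111). In both genes 5 control hearts lay at or above the highest failing heart, and control replicate 4 lay among the lowest failing ones.

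The remaining mitochondrial members pointed both ways. Dnaja3, a matrix J-protein also called Tid1, differed by -0.25 ± 0.26 and Dnajc30 by -0.17 ± 0.15 in its bright probe set. Dnajc11, which sits in the outer membrane, lay at 0.21 ± 0.16 and 0.19 ± 0.16 in its bright probe sets, and Dnajc4 at 0.05 ± 0.14. The groups overlapped in each. A dim Dnajc30 probe set spread from 1.07 to 6.24 among control hearts, too widely for its difference to be read.

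**Figure D2:**
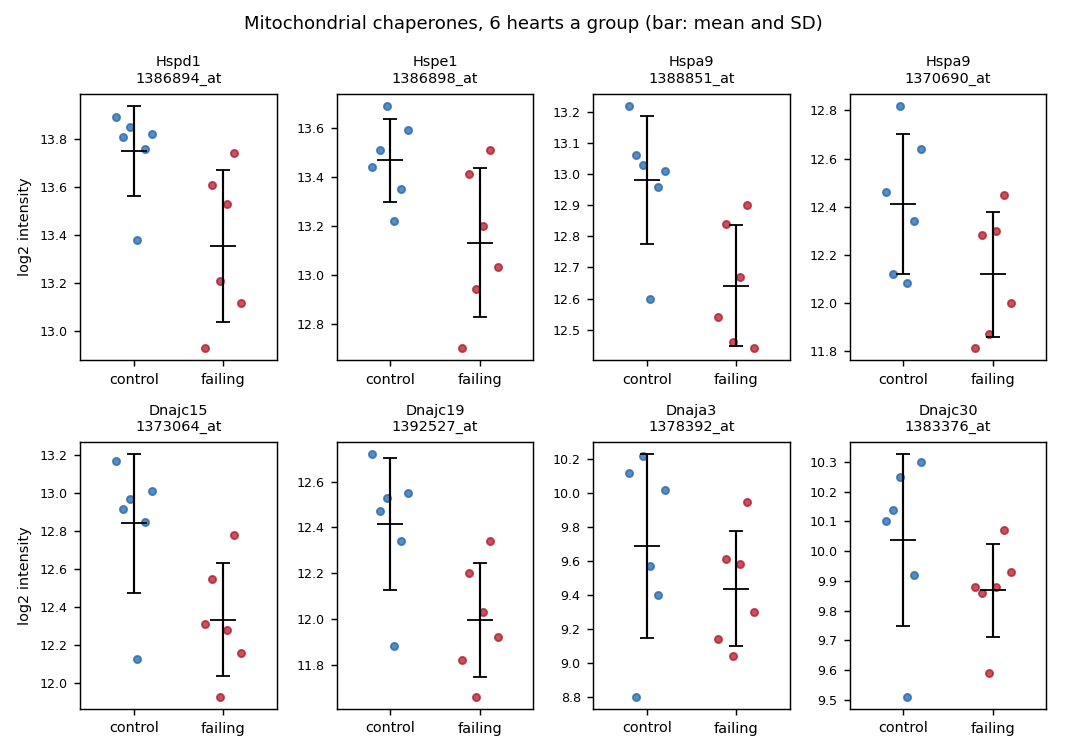
Log2 intensity of 8 mitochondrial probe sets in each of 6 control (blue) and 6 failing (red) hearts, with the mean and SD as bars; each panel has its own vertical axis. In the panels of Hspd1, the first Hspa9 probe set, Dnajc15 and Dnajc19, control replicate 4 stands at the level of the failing hearts. For Dnajc19 control replicate 5 is also level with the highest failing heart (12.34).

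Control replicate 4 bears on all of these values. It was also the lowest control heart for every cardiomyocyte marker, and whether the 2 are linked was not tested. Without it, 4 members were called higher among the brighter probe sets where 1 had been, and 5 lower where 0 had been. The share of all brighter probe sets called without it is not given here, so these counts have no background. The 5 lower ones were Dnajc15 (-0.65, adjusted p = 0.0179), Dnajc19 (-0.53, adjusted p = 0.0232), Hspa9 (-0.42, adjusted p = 0.0324), Dnajc21 (-0.58, adjusted p = 0.0407) and Hspd1 (-0.47, adjusted p = 0.0487, limma with Benjamini-Hochberg adjustment). Leaving out failing replicate 2 or 5 also widened the differences of these 4 mitochondrial genes (Hspd1 to -0.45 and -0.47, Dnajc15 to -0.55 and -0.59), without a call. Other hearts weakened them. Without failing replicate 3, control replicate 1 or control replicate 6, Hspd1, Hspa9, Dnajc19 and Dnajc15 each missed an unadjusted limma p of 0.05. So did Hspd1, Hspa9 and Dnajc19 without failing replicate 1 or control replicate 3, Hspd1 and Hspa9 without failing replicate 6 or control replicate 2, and Hspd1 without control replicate 5.

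Partners of these mitochondrial chaperones, 14 genes with 22 probe sets, had 0 higher and 3 lower at an unadjusted p under 0.05 and a median difference of -0.19. Over all probe sets 7.25% were higher and 7.23% lower at that p. In the fit on brighter probe sets, which held 18 of the 22, the shares were 13.2% and 12%. Tomm34, a cytosolic protein that hands precursors from Hsp70 and Hsp90 to the mitochondrial entry gate, fell. It ran from 8.52 through 8.7 to 8.77 in failing and from 8.9 through 9.1 to 9.64 in control hearts, without overlap (-0.47 ± 0.13, exact permutation p = 0.00216, limma adjusted p = 0.0476 among brighter probe sets). A second, dim Tomm34 probe set gave -0.52 ± 0.82. The call of the first ended without any 1 of 10 hearts and stood only without failing replicate 5 or control replicate 4 (adjusted p from 0.0353 to 0.108). It also ended with median centring (adjusted p = 0.0774), with the replicate number as a block (adjusted p = 0.0834) and by the rank-sum test (adjusted p = 0.0825). Tomm70, the receptor at that gate, ran from 11.04 to 11.45 in failing and from 11.3 to 11.76 in control hearts (-0.38 ± 0.12, exact permutation p = 0.00649, limma adjusted p = 0.0605, and 0.0181 at the lowest without 1 heart), and its second probe set gave -0.18 ± 0.13. Grpel1, the nucleotide exchange factor of Hspa9, differed by -0.40 ± 0.17 (exact permutation p = 0.0368, limma adjusted p = 0.136, and 0.0373 without control replicate 4).

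In the cytosol, 1 J-protein gene rose. Dnajb6, which keeps aggregation-prone proteins soluble and in which mutations cause a muscular dystrophy, ran from 10.45 through 10.61 to 10.82 in failing and from 9.91 through 10.12 to 10.44 in control hearts. All 6 failing hearts exceeded every control heart. The difference was 0.49 ± 0.12, a fold of 1.41 (n = 6 a group; exact permutation p = 0.00216, limma adjusted p = 0.155 over all and 0.038 among brighter probe sets). The call held without control replicate 4, failing replicate 2 or failing replicate 5 and ended without any 1 of the other 9 hearts (adjusted p from 0.0144 to 0.0925 over all 12). With the replicate number as a block its adjusted p was 0.0593, and by the exact rank-sum permutation test 0.0825. Further probe sets list Dnajb6 with its pseudogenes and were left out, and whether this probe set also binds pseudogene RNA was not tested.

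Other cytosolic J-proteins lay higher without passing. Dnajc7, which carries repeats that bind both Hsp70 and Hsp90, ran from 10.93 through 11.16 to 11.24 in failing and from 10.09 through 10.58 to 10.99 in control hearts, so that 5 of 6 failing hearts exceeded every control heart. Its difference was 0.56 ± 0.18 (exact permutation p = 0.00649, limma adjusted p = 0.0618 among brighter probe sets, and 0.0347 without control replicate 4). Its other probe sets were dim, at means of 2.22 and 5.81 in failing hearts, and gave -0.27 ± 0.27 and -0.18 ± 0.65.

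Dnajb5, a J-protein of the same type as Dnajb1, had 3 probe sets. The first ran from 8.79 through 8.96 to 9.18 in failing and from 7.89 through 8.56 to 8.91 in control hearts (0.48 ± 0.16, exact permutation p = 0.00433, limma adjusted p = 0.0729 among brighter probe sets), with 5 failing hearts above every control heart. The second, 0.73 ± 0.31 (exact permutation p = 0.013), missed an unadjusted limma p of 0.05 without any 1 of failing replicates 1, 2, 5 and 6 and control replicate 1. The third, at a mean of 9.96 in failing hearts, gave -0.05 ± 0.14. For Dnajc17, a J-protein linked to splicing, the brighter probe set gave 0.69 ± 0.25 (exact permutation p = 0.0152) and the dimmer one -0.98 ± 0.40 (exact permutation p = 0.00866). The dim one missed an unadjusted limma p of 0.05 without control replicate 4, 5 or 6. In this gene the probe sets pointed in opposite directions, so no direction is given for it.

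The classical stress-inducible genes of the cytosol did not move as a block. Hspa1a, the inducible Hsp70, ran from 9.85 through 10.25 to 11 in failing and from 9.58 through 9.67 to 10.18 in control hearts, with 3 of 6 failing hearts above every control heart. The difference was 0.51 ± 0.21, a fold of 1.42 (exact permutation p = 0.0325, limma adjusted p = 0.122 among brighter probe sets), and it missed an unadjusted limma p of 0.05 without any 1 of failing replicates 3, 4 and 6 and control replicates 1 to 4. Hspa1a has a near-identical copy, Hspa1b, and the signal may come from either. Dnajb1, its main inducible J-protein partner, ran from 8.39 through 8.77 to 8.98 in failing and from 7.34 through 8 to 9.02 in control hearts. It differed by 0.68 ± 0.25 (exact permutation p = 0.0281, limma adjusted p = 0.0918, and 0.0145 without control replicate 4). Its second probe set gave 0.26 ± 0.23.

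Hsph1, which resets Hsp70 and whose promoter window holds a 3-unit heat shock element, lay at -0.12 ± 0.16 and -0.04 ± 0.17. Dnaja1, the other cytosolic gene with such an element, lay at 0.02 ± 0.13 and -0.06 ± 0.17. The constitutive Hsp90ab1 gave -0.10 ± 0.11 in its brighter probe set (95% interval from -0.33 to 0.14) and 0.21 ± 0.21 in the other. Hspa4, an Hsp110-type partner of Hsp70, lay at 0.14 ± 0.16, and Hspa2 at 0.41 ± 0.20 (exact permutation p = 0.0736). A dimmer Hspa2 probe set gave 0.25 ± 0.34. Hspa1l, which starts 467 bases from Hspa1a on the opposite strand, was dim, with means of 5.88 ± 0.45 (SD) in the failing group and 5.81 ± 0.46 among controls. Of the 4 genes whose windows held a 3-unit element, then, the mitochondrial pair lay at -0.40 and -0.34, while the probe sets of Hsph1 and Dnaja1 lay between -0.12 and 0.02.

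Lower cytosolic members were few. Dnajc21, which serves ribosome maturation, ran from 8.01 through 8.58 to 8.81 in failing and from 8.35 through 9.21 to 9.31 in control hearts. The difference was -0.46 ± 0.21 (exact permutation p = 0.0541, limma adjusted p = 0.16 among brighter probe sets), and it missed an unadjusted limma p of 0.05 without any 1 of 8 hearts, all but failing replicates 2 and 5 and control replicates 3 and 4. Dnaja2, a J-protein of Hsp70's folding cycle, gave -0.14 ± 0.10, with 4 failing hearts below every control heart (exact permutation p = 0.0346, unadjusted limma p = 0.181). Dnaja4 gave 0.33 ± 0.18 and -0.06 ± 0.11 in its probe sets. Dnajb4 lay at 0.18 ± 0.12.

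**Figure D3:**
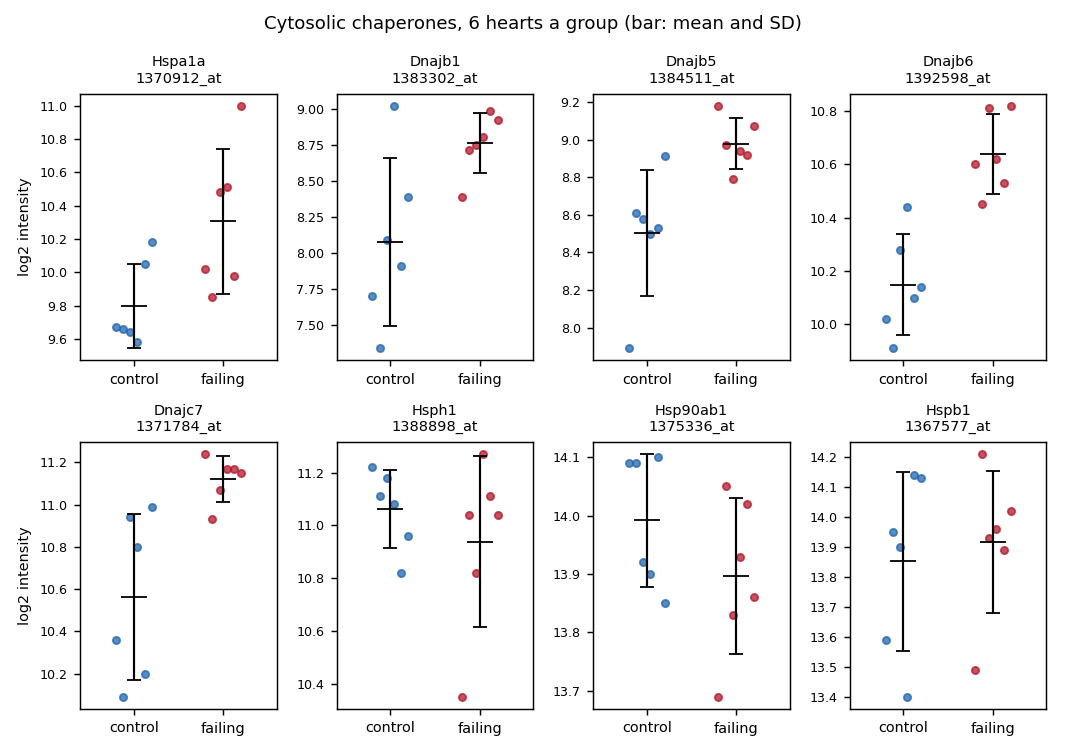
Log2 intensity of 8 cytosolic probe sets in each of 6 control (blue) and 6 failing (red) hearts, with the mean and SD as bars; each panel has its own vertical axis. The Dnajb6 groups do not overlap, 5 of 6 failing hearts lie above every control heart for Dnajc7 and this Dnajb5 probe set, and the groups overlap widely for Hsph1, Hsp90ab1 and Hspb1.

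None of the small heat shock proteins of heart muscle passed the test. Hspb1 (Hsp27), which guards the actin and intermediate filaments, ran from 13.49 through 13.94 to 14.21 in failing and from 13.4 through 13.93 to 14.14 in control hearts, and the difference was 0.06 with a 95% interval from -0.30 to 0.43. Hspb7, a heart-enriched member, gave -0.01 ± 0.15 and 0.02 ± 0.14. Hspb8, which works with the cochaperone Bag3 to clear damaged proteins of the sarcomere, gave 0.17 ± 0.16 and 0.07 ± 0.14. Hspb2 lay at 0.17 ± 0.15 and its partner Hspb3 at -0.09 ± 0.16. Hspb6 (Hsp20) ran from 14.56 to 15.27 in failing hearts and from 14.57 to 15.39 in control hearts, with control replicate 4 at the bottom of the latter, and differed by -0.24 ± 0.17. Without control replicate 4 the Hspb6 difference was -0.35 and passed an unadjusted limma p of 0.05, and without failing replicate 5 as well it was -0.43 (limma adjusted p = 0.0234 among brighter probe sets). The groups overlapped in each of these 8 probe sets.

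In the endoplasmic reticulum the major chaperones did not differ by more than the spread between hearts, whereas a few of their partners lay higher. Hspa5 (BiP), the Hsp70 of this compartment, ran from 12.77 through 13.22 to 13.46 in failing and from 13.26 through 13.29 to 13.42 in control hearts. The failing hearts scattered more, with an SD of 0.24 against 0.06, and the difference was -0.11 with a 95% interval from -0.38 to 0.17. Hsp90b1 (Grp94), the Hsp90 of this compartment, ran from 12.09 through 12.58 to 12.77 and from 12.2 through 12.41 to 12.51, and differed by 0.10 with an interval from -0.20 to 0.40. Dnajb9, Dnajb11 and Dnajc10, J-proteins of BiP, lay between -0.18 and 0.16.

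Dnajc3, a J-protein of BiP that also restrains the stress kinase PERK, ran from 9.52 through 9.64 to 9.99 in failing and from 9.1 through 9.37 to 9.45 in control hearts, so that all 6 failing hearts exceeded every control heart. The difference was 0.35 ± 0.12, a fold of 1.28 (exact permutation p = 0.00216, limma adjusted p = 0.212 over all and 0.0733 among brighter probe sets, and 0.0456 without control replicate 4). Hspa13, an Hsp70-like protein of the microsomes, ran from 9.46 through 9.62 to 10.05 and from 9.02 through 9.31 to 9.57, with 5 failing hearts above every control heart (0.36 ± 0.15, exact permutation p = 0.0152). It missed an unadjusted limma p of 0.05 without failing replicate 2, failing replicate 5, or any 1 of control replicates 1, 3 and 5. Of the 3 genes that share the ER stress response element shown above, then, only Dnajc3 differed at an unadjusted p under 0.05. Whether its difference exceeded those of Hspa5 and Hsp90b1 was not tested.

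Dnajb14, a J-protein of the reticulum membrane, was measured by 3 dim probe sets. The first gave 1.83 ± 0.52 (exact permutation p = 0.00433), from 5.09 to 6.67 in failing and from 2.04 to 5.3 in control hearts, the second -2.07 ± 0.98 (exact permutation p = 0.0844) and the third 0.01 ± 0.20. They disagreed in sign, and no fold is given at these intensities. Over the whole group, 25 genes had more than 1 probe set, and in 16 of them the probe sets did not all lie on the same side of 0.

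**Figure D4:**
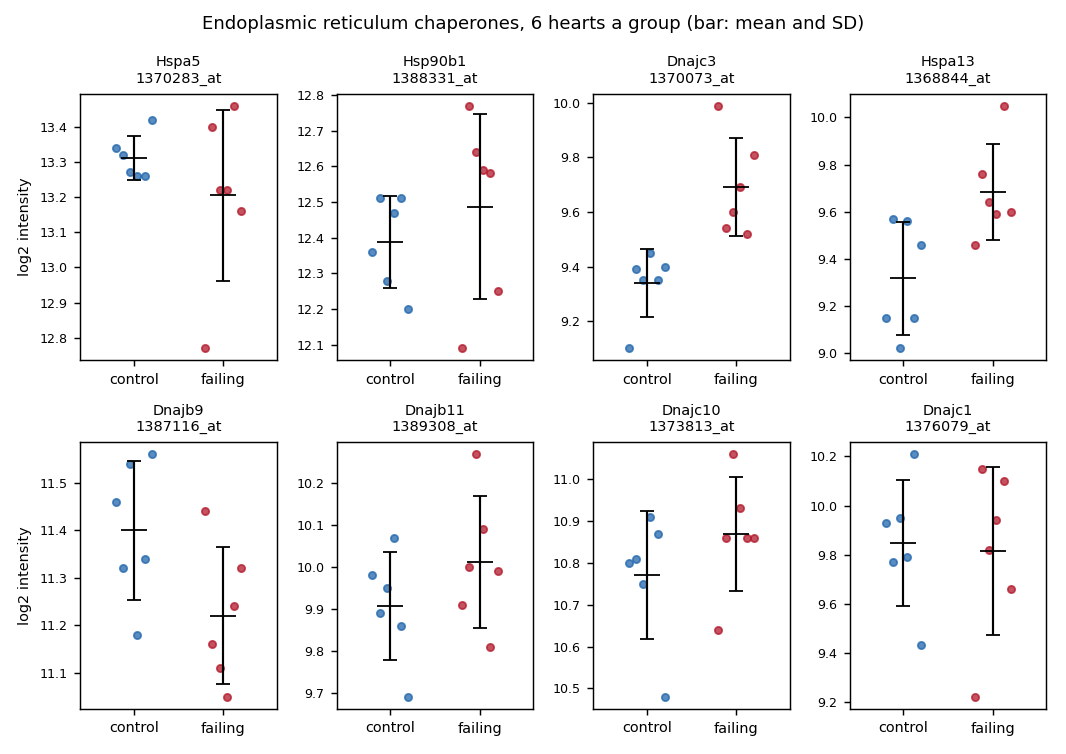
Log2 intensity of 8 probe sets of the endoplasmic reticulum in each of 6 control (blue) and 6 failing (red) hearts, with the mean and SD as bars; each panel has its own vertical axis. Only the Dnajc3 groups do not overlap, and the failing hearts are more scattered than the control hearts for Hspa5 and Hsp90b1.

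Genes that work with these chaperones were taken from fixed lists. Of 27 genes of folding and stress signalling in the endoplasmic reticulum (41 probe sets), 5 probe sets were higher and 1 lower at an unadjusted p under 0.05, and 0 were called among the brighter ones. The counts of 5 and 1 come from the fit over all probe sets, where the background was 7.25% higher and 7.23% lower. It was 13.2% and 12% in the fit on brighter ones, which held 36 of the 41. That fit did not hold the Trib3 probe set counted as higher, which is dim. Of all brighter probe sets 2.76% were called higher and 1.48% lower. Hyou1, which exchanges the nucleotide of BiP, was the lower one, from 8.21 to 8.78 in failing and from 8.29 to 9.38 in control hearts (-0.55 ± 0.18, exact permutation p = 0.0195, limma adjusted p = 0.0727, and 0.0126 without control replicate 4). Its second probe set gave -0.36 ± 0.33. Edem1 and Selenos, which help dispose of misfolded proteins, gave 0.51 ± 0.19 and 0.39 ± 0.15, and Trib3, a stress-induced pseudokinase, 1.27 ± 0.47 at a low intensity. The other probe sets of Edem1 gave 0.07 ± 0.30 and 0.36 ± 0.30, and those of Trib3, also dim, 1.03 ± 0.49 and 0.64 ± 0.38. Of the J-domain genes under other names, Sec63 of the protein-conducting channel gave 0.73 ± 0.25 (exact permutation p = 0.026) and Gak, which uncoats clathrin vesicles, 0.47 ± 0.18 (exact permutation p = 0.0325). The other 3 Sec63 probe sets gave 0.36 ± 0.21, 0.22 ± 0.14 and -0.11 ± 0.36. The first Sec63 probe set and Gak passed among the brighter ones without control replicate 4 (limma adjusted p = 0.0171 and 0.0169), and the first Edem1 probe set without failing replicate 5 or control replicate 4.

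Among 26 cytosolic co-chaperone genes (32 probe sets), 3 probe sets were higher and 3 lower at an unadjusted p under 0.05. Over all probe sets the shares were 7.25% and 7.23%, and in the fit on brighter ones, which held 30 of the 32, 13.2% and 12%. Fkbp4, an Hsp90 partner that promotes the activity of steroid receptors, fell. It ran from 9.21 through 9.82 to 10.48 in failing and from 10.24 through 10.71 to 11.12 in control hearts (-0.88 ± 0.23, exact permutation p = 0.00649, limma adjusted p = 0.0419 among brighter probe sets). The call held without failing replicate 5 or control replicate 4 and ended without any 1 of the other 10 hearts (adjusted p from 0.0125 to 0.0984 over all 12), and it also ended with the replicate number as a block (adjusted p = 0.0928) and by the exact rank-sum permutation test (adjusted p = 0.109). Fkbp5, the related Hsp90 partner that restrains the glucocorticoid receptor and is itself induced by it, lay the other way. Its probe sets gave 1.84 ± 0.55 and 0.84 ± 0.29 (exact permutation p = 0.013 and 0.026, limma adjusted p = 0.0547 and 0.0803 among brighter probe sets). Chordc1, another Hsp90 partner, ran from 9.99 to 11 in failing and from 10.92 to 11.34 in control hearts (-0.57 ± 0.17, exact permutation p = 0.00433, limma adjusted p = 0.0556). Both Fkbp5 probe sets and Chordc1 passed without failing replicate 5 or control replicate 4 (lowest adjusted p = 0.0156, 0.0176 and 0.0223). At an unadjusted p under 0.05, 0 of 7 probe sets of the heat shock factor list, 0 of 17 of the TRiC chaperonin and prefoldin and 0 of 2 alpha-crystallins differed in either direction.

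Chaperones that share a complex or a promoter were set against each other across hearts in 4 pairs, by Pearson and Spearman correlation over the 12 hearts after each group was centred, with permutation within groups, and by exact permutation in each group (12 values in the family). Hspd1 and Hspe1 moved together, with r = 0.92 (permutation p = 0.0003, adjusted p = 0.0036) and rho = 0.9 (adjusted p = 0.0096). Without the 2 hearts farthest from the median of Hspd1, r was 0.85. Within the failing hearts r was 0.97 (n = 6, exact permutation p = 0.00417, adjusted p = 0.025) and within the control hearts 0.76 (exact permutation p = 0.0486, adjusted p = 0.0972). The heart with the least Hspd1 in each group, at 12.93 and 13.38, also had the least Hspe1, at 12.7 and 13.22. Among failing hearts these were replicate 1 for the lowest and replicate 5 for the highest value of both genes. The second Hspa9 probe set had the same lowest and highest hearts (11.81 and 12.45), while the first was lowest in failing replicate 6 (12.44). Other pairs of mitochondrial genes were not set against each other, so whether the relation is particular to this pair was not tested.

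Hspa5 and Hsp90b1 did not pass over the 12 hearts (r = 0.65, permutation p = 0.0797, adjusted p = 0.137; rho = 0.34, permutation p = 0.328, adjusted p = 0.41), and r fell to 0.30 without the 2 farthest hearts. Within the failing hearts r was 0.84 (exact permutation p = 0.0319, adjusted p = 0.0958), and within the control hearts, where Hspa5 hardly varied, -0.68 (exact permutation p = 0.124). Hsph1 and Dnajb1 gave r = 0.65 (permutation p = 0.0402, adjusted p = 0.0964) and rho = 0.4 (permutation p = 0.211). That relation rested on the hearts at the extremes, since r was 0.27 without the 2 farthest. Hspb1 and alpha-B-crystallin (Cryab), which form mixed oligomers, gave r = 0.39 (permutation p = 0.257) and rho = 0.32 (permutation p = 0.342).

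**Figure D5:**
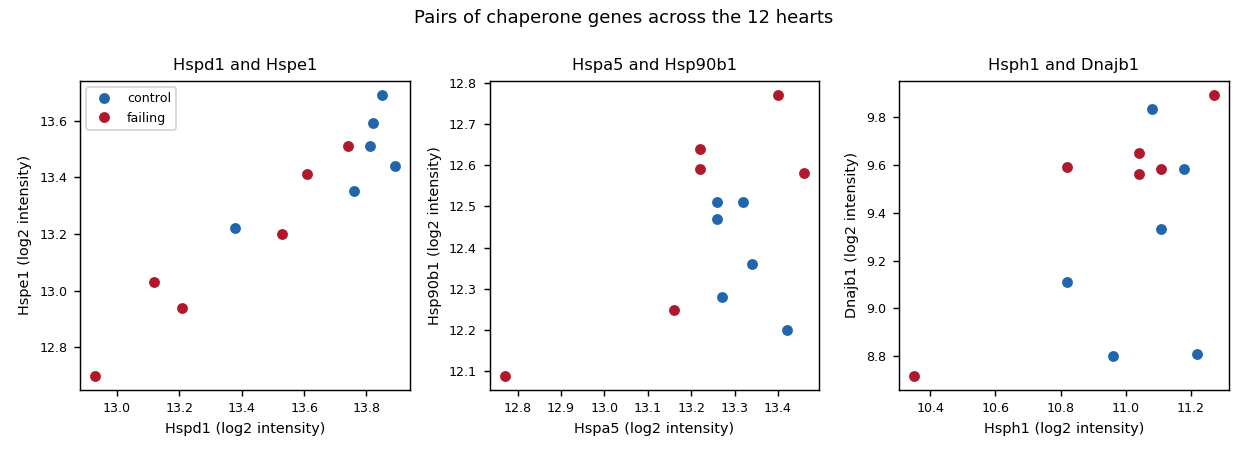
Log2 intensity of 1 chaperone gene against another in each of the 12 hearts (control blue, failing red). For Hspd1 and Hspe1 r was 0.92 over the 12 hearts after each group was centred, 0.97 in failing and 0.76 in control hearts, the last not passing after adjustment, whereas for Hsph1 and Dnajb1 a single failing heart lies apart at the lower left.

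Members not described above lay between -0.96 and 1.06 on the log2 scale, with the widest values among the dimmer probe sets. The 26 dimmer members had a median residual SD of 0.77 against 0.25 for the 70 brighter ones. For the unassigned genes, Hspa12a gave -0.19 ± 0.25, Dnajc22 0.67 ± 0.43, and the 3 Hspa12b probe sets -0.61 ± 0.31, -0.42 ± 0.79 and 0.16 ± 0.24.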

How the data were processed

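The 96 members and all lists were chosen with earlier results of these data known. Heart RNA of 6 failing and 6 control rats had been extracted with Trizol and RNeasy columns and labelled as biotin-cRNA, per the labels' protocols. The authors deposited linear intensity values from 0.1 to 79913.6. The submitters' processing notes name RMA, without a version, but linear values with a trimmed mean near 500 on every array are not usual for RMA, so the summary method stays unknown, and a shift of most genes one way would not be seen. No genome build or detection calls are given in the sources used here.

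The log2 of each intensity was taken as it stood, 57 control probe sets were left out, and groups were compared with limma 3.58.1 (R 4.3.3; lmFit, eBayes, Benjamini-Hochberg adjustment, threshold 0.05, two-sided) over all 31042 probe sets, and again over the brighter 15521. The fits were tested on simulated data. Exact permutation tests of single probe sets were added after seeing the data and decide no call. Log2 differences are failing minus control with moderated SE. Array annotation gave the gene symbols, and a RefSeq promoter table (GRCr8) the sequences. Named in the text are 36 fixed chaperone genes where measured, every member at an unadjusted p under 0.05 or without overlap, and up to 4 such probe sets of each partner list. A few more partners are named where they passed that p only in the fit on brighter probe sets. Correlations of the deviations of same-numbered hearts ran from -0.0602 to 0.232. Values for differently numbered hearts are not given here for comparison, so whether the replicate number pairs hearts was not tested. Figures were drawn with matplotlib 3.10.9.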

Additional observations from a re-analysis of the deposited data

Results flagged for a closer look

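A single heart stood apart from the other 5 of its group, by more than Dixon's 95% critical gap, in 9 of 98 groups tested (49 named probe sets in both groups); chance alone flags about 1 in 20 groups. Failing replicate 1 was low for Dnajb1 (8.72 against 9.56 to 9.89 in the other failing hearts), Hsp90ab1 (11.78 against 12.36 to 12.59) and Hsph1 (8.75 against 9.42 to 9.73). Control replicate 4 was low for Hspd1 (13.38 against 13.76 to 13.89), Dnajc15 (12.13 against 12.85 to 13.17) and Hspb6 (14.57 against 15.13 to 15.39). The others were Dnajc17 in failing replicate 4 (3.51 against 5.45 to 6.17), Dnajc10 in control replicate 6 (10.48 against 10.75 to 10.91) and Dnajc3 in control replicate 1 (9.1 against 9.35 to 9.45).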

How the results depend on the processing

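Members called over all probe sets went from 0 to 1 higher with a trend and robust variance model, or among brighter probe sets. Both directions reached 1 when failing replicate 5 and control replicate 4 were dropped together, an alternative chosen after seeing the data. Among brighter probe sets, 1 higher and 0 lower became 4 and 3 with array weights, 4 and 7 without those 2 hearts, 2 higher with trend and robust variances, 3 higher with the RNA quality covariate or the brightest probe sets alone, and 0 higher with the rank-sum test or the replicate block. Leaving out 1 heart gave 0 to 4 higher and 0 to 5 lower. At an unadjusted p under 0.05, 10 higher became 6 with 1 probe set for each gene (cytosol 7 to 4). The 6 lower became 12 without the 2 hearts and 0 to 10 without 1 heart. The mitochondrial 4 became 7 without the 2 hearts, 1 with the replicate block and 0 to 6 without 1 heart, and the 3 higher of the endoplasmic reticulum 1 with the block. In the alternatives run, the mitochondrial median stayed below 0. Of 16 named members at an unadjusted p under 0.05, 5 kept it under every alternative. The shares of all probe sets under these alternatives are not given here, and the cause of these shifts was not tested.

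Among the 49 named member probe sets, signs turned in 8, each within 0.1 of 0. Of the Dnaja1 probe sets, 1 was 0.0105 with array weights and -0.1224 to 0.0483 without 1 heart, and the other -0.0067 without the 2 hearts and -0.0296 to 0.0876 without 1. Hspb1 was -0.0215 without the 2 hearts and -0.0264 to 0.149 without 1. Of the Hspb7 probe sets, 1 was 0.0788 with quantile normalization, 0.0022 with the RNA quality covariate and -0.1043 to 0.0524 without 1 heart, and the other -0.0334 to 0.0961. Without 1 heart, the third Dnajb5 probe set ran from -0.1089 to 0.0092, the second of Hsph1 from -0.1049 to 0.0909 and the third of Hspa9 from -0.0509 to 0.2308.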
